A study of Mus musculus with 6 samples.

Results

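Egln3 belongs to a group of 10 genes that serve the cell's response to low oxygen, taken here as listed: the oxygen sensors Egln1, Egln2 and Egln3, their substrate gene Hif1a, the ubiquitin ligase gene Vhl, and the hypoxia-inducible genes Vegfa, Bnip3, Ankrd37, Adm and Pfkfb3. A probe set carrying only the gene's own name was found for 9 of the 10, out of 22180 genes with such a probe set. Ankrd37 was the exception, since its only probe set also carries another gene's name, and it is not analysed here. Egln3 was chosen by its difference between mutant and control arrays, which was known when the group was put together, and the others are genes of the same pathway. The members' differences below are therefore a description and carry no test.

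The cells were common lymphoid progenitors negative for Ly6D, early bone marrow cells with the potential to form T, B and natural killer cells. They came from mice of 6 to 8 weeks. Control mice were OcnCre-;iDTR+/- and mutant mice OcnCre+;iDTR+/-. The osteocalcin promoter drives Cre, which switches on a diphtheria toxin receptor, so that toxin removes osteocalcin-expressing bone cells in the mutants. Both groups carried iDTR and had diphtheria toxin daily for 4 weeks, with the cells sorted the day after the last injection. The sort took cells low for lineage markers and positive for cKit, Sca and CD127 that lacked Thy1.2 and Ly6D. Each group had 3 samples, each on 1 Affymetrix array, and this small number limits the precision. Whether a sample was 1 mouse or a pool is not stated in the labels, so errors and p-values cover the spread among these arrays alone. How much of that spread is technical cannot be told. Every value is a log2 intensity, on which a difference of 1 is a change of 2-fold.

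In the presence of oxygen, the prolyl hydroxylases encoded by the Egln genes mark the transcription factor subunit HIF-1 alpha, the product of Hif1a. The Vhl protein binds the marked subunit and has it degraded. When oxygen falls the hydroxylases slow, HIF accumulates and binds hypoxia response elements, and genes of glucose use, vessel growth and mitochondrial turnover are switched on. Egln3, and to a lesser degree Egln1, are themselves HIF target genes. Bone marrow holds regions of low oxygen, and HIF takes part in the metabolism of blood progenitors kept there.

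The core of a hypoxia response element is ACGTG or GCGTG. The promoters of Egln3, Egln1 and Bnip3 are shown because they are HIF target genes whose mutant means lay on different sides of the control means: Egln3 above, Egln1 below, and Bnip3 level with it to within its error. Each run gives the 250 bases before the RefSeq start (build GRCm38.p6), on the gene's own strand. Capitals mark each match to a core on either strand.
Egln3, chr12:54203875-54204124, minus strand: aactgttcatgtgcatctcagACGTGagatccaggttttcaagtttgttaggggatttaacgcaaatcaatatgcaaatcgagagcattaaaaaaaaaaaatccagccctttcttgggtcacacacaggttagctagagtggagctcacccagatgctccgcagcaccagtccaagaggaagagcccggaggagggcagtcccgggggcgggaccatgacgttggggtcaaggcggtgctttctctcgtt
Egln1, chr8:124949255-124949504, minus strand: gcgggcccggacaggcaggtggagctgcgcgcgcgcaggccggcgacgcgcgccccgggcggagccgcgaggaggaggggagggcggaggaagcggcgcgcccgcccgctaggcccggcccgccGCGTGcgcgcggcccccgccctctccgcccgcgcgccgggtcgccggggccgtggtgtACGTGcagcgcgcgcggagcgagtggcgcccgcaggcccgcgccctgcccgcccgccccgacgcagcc
Bnip3, chr7:138909507-138909756, minus strand: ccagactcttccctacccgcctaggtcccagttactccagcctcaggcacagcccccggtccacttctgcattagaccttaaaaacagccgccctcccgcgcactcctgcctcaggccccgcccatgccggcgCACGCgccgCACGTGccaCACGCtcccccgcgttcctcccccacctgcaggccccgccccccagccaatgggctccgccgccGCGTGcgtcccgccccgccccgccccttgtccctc
The Egln3 window held 1 ACGTG, which begins 229 bases before the start, and 0 GCGTG. The Egln1 window held 1 of each, beginning 68 bases (ACGTG) and 126 bases (GCGTG) before the start. In Bnip3 the count was 2 for ACGTG and 3 for GCGTG, and the pair of ACGTG matches is a single CACGTG read on both strands, at 107 and 108 bases. Bnip3 had the most matches of these windows. Whether matches relate to the differences was not tested.

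All 10 members had at least 1 window before a RefSeq start, in 13 windows. Of the 10 genes, 8 held ACGTG and 7 held GCGTG in at least 1 window, against 18.5% and 30.9% of 27025 genes. Vhl held neither core in its window, and Adm held only GCGTG. Vegfa counted for both cores only through its window at chr17:46025164-46025413, which precedes a RefSeq start inside the gene. Its window before the upstream start, at chr17:46032378-46032627, held neither core. The Vegfa matches thus lie within the gene and not in the window before its upstream start. The members' windows had 48.0% to 86.0% G and C, where the median over all windows was 52.4%, and both cores contain a CG pair. A match describes the letters and does not show that HIF binds there.

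Before the values, some facts of the arrays bear on them. Mutant replicate 2 correlated with the other arrays at 0.936 to 0.954, and the remaining pairs of arrays at 0.973 to 0.989 (a correlation over probe sets, which do not vary independently). Mutant replicates 2 and 3 had a narrower range of values, with bright genes below and dim genes above the control mean: in group 8 of 10 from the dim end the median gene lay at −0.32 and −0.18 from that mean, against 0.012 on mutant replicate 1. Xist, which is expressed from the inactive X chromosome of females, was at 11.04, 8.07 and 6.57 in controls and 8.03, 5.57 and 10.72 in mutants. The Y-linked gene Eif2s3y was at 4.88, 7.82 and 7.85 in controls and 7.74, 7.31 and 4.77 in mutants. Control replicate 1 and mutant replicate 3 were thus high for Xist and low for Eif2s3y, while control replicate 2 and mutant replicate 1 had intermediate Xist beside high Eif2s3y. Of the sort markers, Kit lay at 6.95 to 7.41 and Il7r (CD127) at 9.72 to 10.35 over the 6 arrays. Ly6d and Thy1, whose proteins the sort excluded, were measured at 7.00 to 8.25 and 6.54 to 7.31. RMA gives no detection call, so none of these levels can be placed above or below background. In sorted bulk cells, fewer cells of a type and less RNA per cell cannot be told apart.

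Egln3 had the widest gap between the groups of any member. Its log2 intensity, here and below in the order of the replicate numbers, was 5.16, 5.02 and 5.02 in the control arrays and 6.44, 5.62 and 5.97 in the mutant arrays. The lowest mutant lay 0.46 above the highest control. The mutants were also less alike, with an SD of 0.41 around a mean of 6.01, against 0.082 around 5.07 in controls (n = 3 each). The mean difference was 0.94 ± 0.20 (limma SE), or 1.93-fold, and 21 of the 13308 genes tested had a larger positive difference. Egln3 was a dim gene, in group 3 of 10 from the dim end, where the median difference of all genes was 0.051. Its control mean was still above the level of 4.84 under which genes were not tested.

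The other Egln genes did not share that direction. Egln1, the main HIF hydroxylase in most cells, had control values of 7.45, 7.63 and 7.63 and mutant values of 7.45, 6.67 and 7.33. Control replicate 1 and mutant replicate 1 were equal to 2 decimals, so the groups were separate by only 0.0013. The difference was −0.42 ± 0.21 (SE), and −0.18 without mutant replicate 2, the lowest array. Egln2, the family member whose protein is mostly nuclear, was at 7.48, 7.68 and 7.66 in controls and 7.57, 7.45 and 6.86 in mutants. Its groups overlapped, and its difference of −0.32 ± 0.19 (SE) became −0.10 without mutant replicate 3. Genes of the same brightness as these, in group 8 of 10, had a median difference of −0.16. After cyclic loess, which removes trends in brightness between arrays, Egln1 was at −0.29 and Egln2 at −0.18, and the groups of Egln1 overlapped.

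The substrate and the ligase of the pathway showed no separation of the groups. Hif1a was at 7.01, 6.97 and 7.06 in controls and 7.00, 6.43 and 6.79 in mutants. The lowest control and the highest mutant overlapped by 0.026, and the difference of −0.28 ± 0.16 (SE) was −0.12 without mutant replicate 2 and −0.18 after cyclic loess. A further probe set of Hif1a, dimmer by its mean, gave −0.10, at 5.86 to 5.91 in controls and 5.60 to 6.03 in mutants. Its highest value was on mutant replicate 1, so there too the groups overlapped. Vhl was at 5.29, 5.06 and 5.61 in controls and 5.33, 5.35 and 5.03 in mutants, a difference of −0.083 ± 0.17 (SE) that was smaller than its error. It turned to 0.062 without control replicate 3 and to 0.020 without mutant replicate 3.

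**Figure D1:**
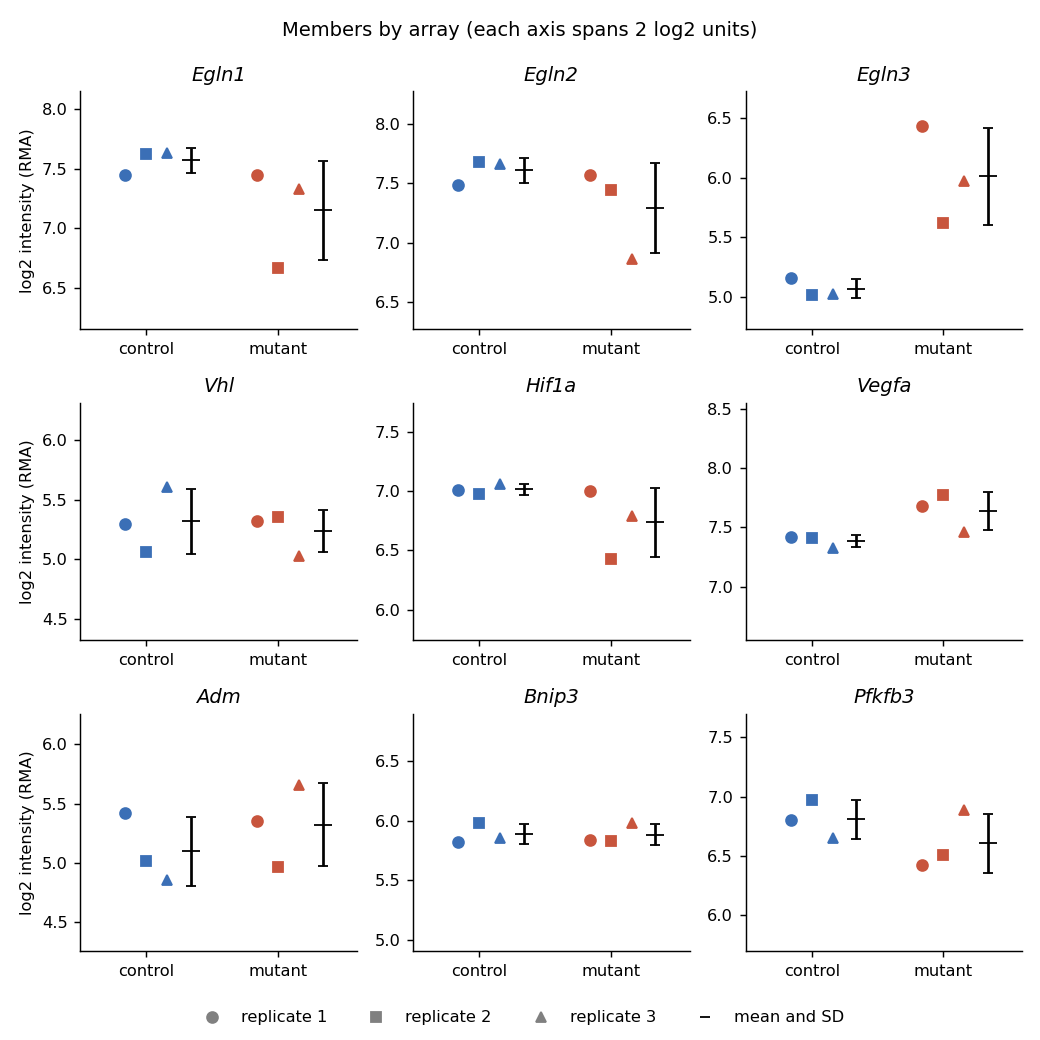
Log2 intensity of the 9 measured members on each array (blue, 3 control arrays; red, 3 mutant arrays; marker shape gives the replicate number), with the mean and SD of each group in black; each vertical axis spans the same range. The mutant points of Egln3 (5.62 to 6.44) lie clear above its controls (5.02 to 5.16), and mutant replicate 2 is the low point of Egln1 and Hif1a.

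The hypoxia-inducible members went in no common direction. Vegfa encodes the growth factor that draws in blood vessels. It was at 7.42, 7.41 and 7.33 in controls and 7.68, 7.77 and 7.46 in mutants, so every mutant was above every control, the nearest by 0.045. The difference was 0.25 ± 0.12 (SE), and 0.39 after cyclic loess. The median difference of genes as bright as Vegfa was −0.19. When arrays were only centred on their medians the Vegfa difference was 0.19 and its groups overlapped. Adm, the gene of the vessel-widening peptide adrenomedullin, was at 5.42, 5.01 and 4.86 in controls and 5.35, 4.96 and 5.65 in mutants. Only mutant replicate 3 exceeded all controls, and without it the difference of 0.23 ± 0.21 (SE) was 0.060.

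Bnip3 and Pfkfb3 showed no gap like that of Egln3. Bnip3 encodes a mitochondrial protein that promotes the removal of mitochondria. Its values were 5.82, 5.98 and 5.86 in controls and 5.84, 5.83 and 5.98 in mutants. The groups overlapped, with an SD of 0.084 in controls and 0.087 in mutants and a difference of −0.0028 ± 0.11 (SE). Pfkfb3 encodes an enzyme that makes fructose 2,6-bisphosphate, an activator of glycolysis. It was at 6.80, 6.97 and 6.65 in controls and 6.42, 6.51 and 6.89 in mutants. Mutant replicates 1 and 2 were below all controls and mutant replicate 3 within them, which gave −0.20 ± 0.16 (SE), or −0.11 without mutant replicate 1.

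Counted together, the mutant mean was the higher for 3 of the 9 members and the lower for 6, with a median difference of −0.083, where the median over all tested genes was −0.043. The groups did not overlap for 3 members: Egln3 and Vegfa, higher in mutants, and Egln1, lower. Among all tested genes this was so for 5.4% in the higher and 9.99% in the lower direction. Nothing is read from these counts, since the contrast had a part in choosing the members. All 8 members other than Egln3 differed by less than 0.5 in size. Each of the 9 passed the filter on dim genes, which uses the mean of all arrays.

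**Figure D2:**
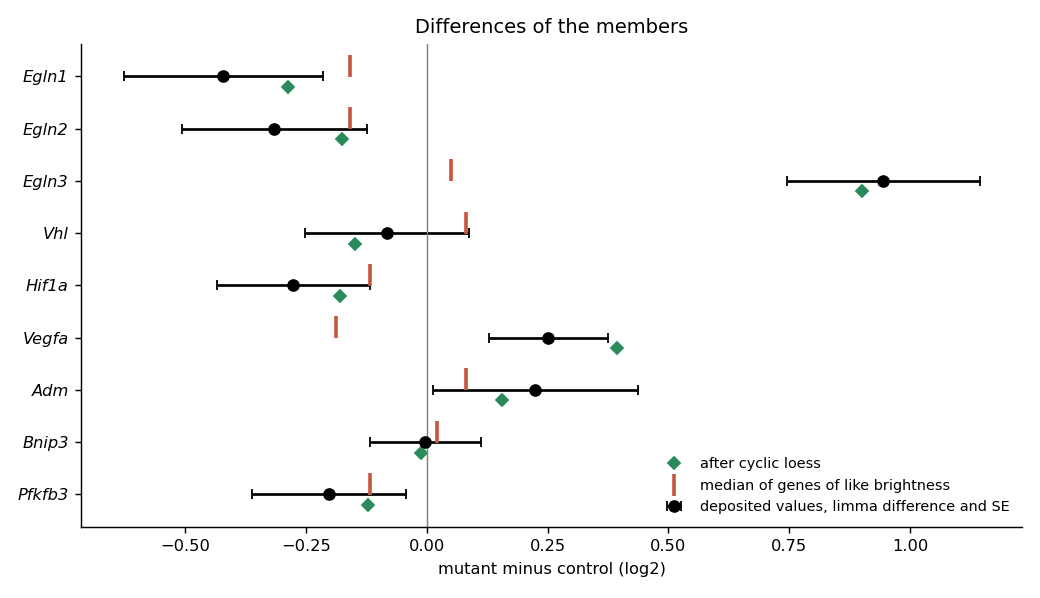
Difference between the mutant and control means of each member, in log2 units (black points, limma difference with its SE from 3 arrays per group; green diamonds, after cyclic loess; red ticks, median difference of the genes of the same brightness group). Egln3 stands at 0.94, with loess at 0.90, while Egln1, Egln2 and Hif1a move towards 0 after loess and Vegfa moves away from it.

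Under every normalization and with any single array left out, Egln3 was higher in mutants. Its difference was 0.90 after cyclic loess, 0.90 with repeated quantile normalization and 0.88 with arrays centred on their medians, and its groups did not overlap in any of these. It was 0.73 without mutant replicate 1, the highest array, and 1.14 without mutant replicate 2, the lowest of the mutants. With 1 array left out the difference of Vegfa also kept its direction (0.18 to 0.34), as did those of Egln1 (−0.57 to −0.18), Egln2 (−0.45 to −0.10), Hif1a (−0.41 to −0.12), Pfkfb3 (−0.34 to −0.11) and Adm (0.060 to 0.41). Bnip3 (−0.053 to 0.045) and Vhl (−0.21 to 0.062) took either sign. For Egln3, Vegfa and Egln1, whose groups did not overlap, leaving out 1 array could not have changed the sign. For them only the sizes carry information.

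**Figure D3:**
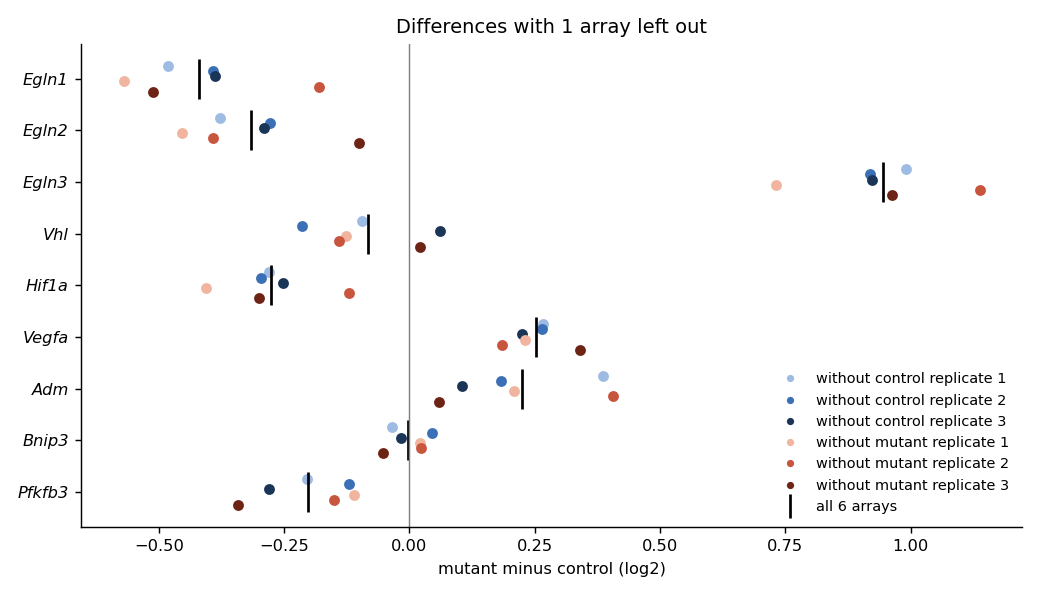
Difference of each member in log2 units with 1 array left out (coloured points) and with all arrays (black ticks). The points of Egln3 run from 0.73 to 1.14, those of Bnip3 and Vhl fall on both sides of 0, and Egln1 and Hif1a come closest to 0 without mutant replicate 2.

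The rest of the pathway was read from lists of other genes, tested in the same limma fit over 13308 genes with Benjamini-Hochberg adjustment. In that fit 0 genes passed an adjusted p of 0.05 (0% of all), and 0 passed in the unmoderated test. At an unadjusted p under 0.05 there were 1068 genes (8.03%), 267 higher (2.01%) and 801 lower (6.02%), and 879 in the unmoderated test. Of 121 listed pathway genes 86 were tested. None of the 86 passed in limma in either direction, and 2 higher and 5 lower had an unadjusted p under 0.05. Their median difference was −0.066, with 34 higher and 52 lower, or 60.5% lower against 57.5% of all tested genes. The groups did not overlap for 4 of the 86 in the higher and 9 in the lower direction. Among all tested genes this was so for 5.4% and 9.99%. Genes named below were picked by low p, which favours separate groups.

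HIF subunits and the proteins that modify or assist them leaned lower, as did bright genes in general. Of 19 tested genes 6 had a higher mean in mutants and 13 a lower one, with 0 past the threshold in either direction and a median of −0.17, which was −0.029 after cyclic loess. The lowest p values belonged to Arntl, a circadian clock factor of the same protein family as the HIF subunits, to the chaperone gene Fkbp8, whose protein binds Egln1's, and to Cited2, whose protein keeps HIF from its coactivators. Arntl was at 7.04, 7.30 and 7.23 in controls and 6.55, 6.87 and 6.82 in mutants, with every mutant below every control (−0.44 ± 0.14, SE; limma adjusted p = 0.594). Fkbp8 differed by −0.45 ± 0.18 (SE), with its groups overlapping by 0.033. Cited2, itself a HIF target, was at 7.98, 7.50 and 7.50 in controls and 8.52, 7.75 and 8.06 in mutants. Its difference of 0.45 ± 0.22 (SE) was 0.24 without mutant replicate 1, whose value was the highest of all. The HIF-2 subunit gene Epas1 and the asparagine hydroxylase gene Hif1an were too dim to be tested.

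Genes of glucose use leaned lower without passing. Of 18 tested genes 5 had a higher and 13 a lower mean (0 past the threshold in either direction; median −0.091). Slc16a3, the lactate exporter gene, was at 5.86, 6.04 and 6.06 in controls and 6.49, 6.33 and 6.13 in mutants, with every mutant above every control (0.33 ± 0.13, SE; limma adjusted p = 0.594). The glycolytic enzyme gene Tpi1 differed by −0.34 ± 0.14 (SE) and Ugp2, which makes the sugar donor of glycogen, by −0.38 ± 0.17 (SE), or −0.20 without mutant replicate 2. The values of Tpi1 in control replicate 1 and mutant replicate 1 both rounded to 8.35.

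Genes of vessels, secreted factors and red cells were centred on 0. Of 15 tested genes 9 had a higher and 6 a lower mean (0 past the threshold; median 0.0066). The genes with the lowest p were Ramp2, Tfrc and Stc2. Ramp2 encodes the partner that turns a receptor into one for adrenomedullin. It was at 5.09, 4.90 and 4.96 in controls and 5.10, 5.31 and 5.41 in mutants, above all controls on each mutant array by at least 0.013 (0.29 ± 0.13, SE; limma adjusted p = 0.594). Stc2, the gene of a secreted glycoprotein, was at 5.29 to 5.54 in controls and 5.60 to 5.69 in mutants (0.24 ± 0.12, SE). Tfrc, the transferrin receptor gene, differed by −0.51 ± 0.24 (SE), and by −0.24 without mutant replicate 2, where it was at 7.67.

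Genes of mitochondria, stress and growth control showed no common direction. Of 19 tested genes 9 had a higher and 10 a lower mean (0 past the threshold; median −0.0028). Txnip, a gene that restrains glucose uptake, was at 8.74, 8.88 and 9.14 in controls and 8.59, 8.52 and 8.42 in mutants, with no overlap (−0.41 ± 0.14, SE; limma adjusted p = 0.594). The metallothionein gene Mt1 differed by 0.44 ± 0.24 (SE) and Selenbp1 by 0.36 ± 0.25 (SE), both with overlapping groups. Without mutant replicate 2 Selenbp1 was at 0.13.

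Genes of matrix, pH and chromatin leaned lower. Of 15 tested genes 5 had a higher and 10 a lower mean (0 past the threshold; median −0.14, and −0.029 after cyclic loess). The DNA demethylation enzyme gene Tet1 was at 5.98, 5.81 and 6.04 in controls and 6.22, 6.35 and 6.35 in mutants, with no overlap (0.36 ± 0.12, SE; limma adjusted p = 0.594). Kdm4c, a histone demethylase gene, was at 7.26 to 7.39 in controls and 6.92 to 7.16 in mutants (−0.30 ± 0.12, SE), again with no overlap. S100a4, a calcium-binding protein gene, had the largest difference of the list at −0.71 ± 0.38 (SE), but it was −0.20 without mutant replicate 2. Enzymes of the Egln genes' wider class were listed too, the prolyl and lysyl hydroxylases and related oxygenases, and of 7 tested 4 were higher and 3 lower (0 past the threshold; median 0.046). Among these Ogfod1, a ribosomal prolyl hydroxylase gene, differed by −0.37 ± 0.15 (SE), Jmjd4 by 0.34 ± 0.17 (SE) and P3h3 by 0.30 ± 0.16 (SE), each at a limma adjusted p of 0.594. Without mutant replicate 2 Jmjd4 was at 0.18 and P3h3 at 0.20, and without mutant replicate 3 Ogfod1 was at −0.22.

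**Figure D4:**
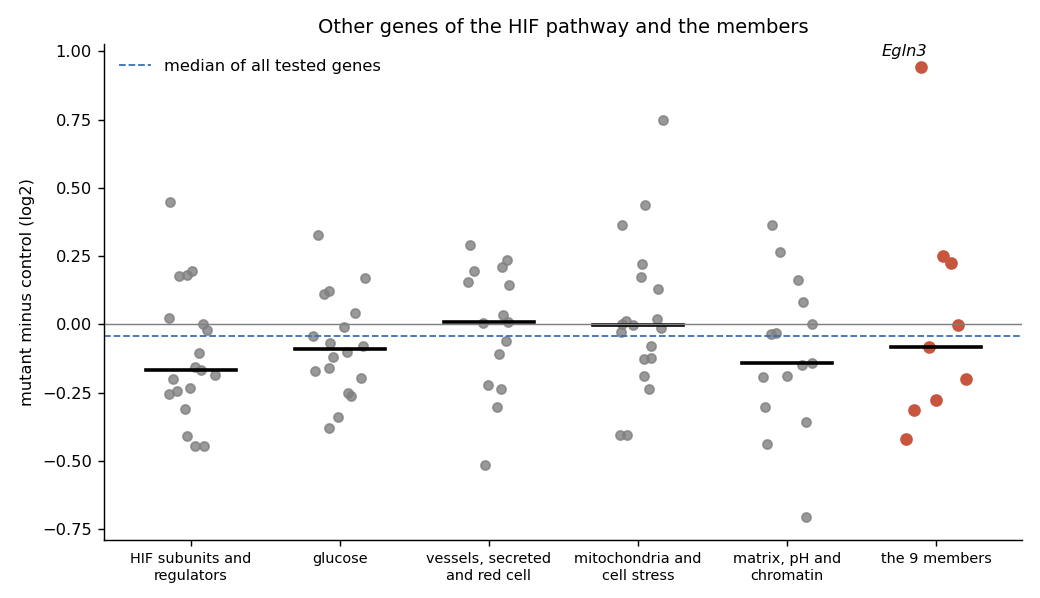
Difference between mutant and control means in log2 units for each tested gene (grey points) of the 5 lists of other HIF pathway genes, and for the 9 members (red), with list medians as black bars and the median of all tested genes, −0.043, as a dashed line; horizontal scatter within a list carries no meaning. The list medians lie between −0.17 and 0.0066, and no gene of these lists reaches the 0.94 of Egln3.

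On the deposited values, the 6 genes whose pattern over the 6 arrays was most like that of Egln3 were on none of the pathway lists. Likeness was measured as the mean, over the 6 arrays, of the absolute difference between the log2 values of a gene and those of Egln3, each taken minus its own mean over the arrays. The nearest of 12225 genes was Cish, a cytokine signalling inhibitor gene (0.11), followed by Apold1, a gene of vessel lining cells (0.15), Olr1, a receptor gene for oxidised lipoprotein (0.17), and Stfa1, a protease inhibitor gene (0.18). The nuclear receptor gene Nr4a3 (0.20) and Trem1, a receptor gene of neutrophils and monocytes (0.21), completed the 6. Apold1 was at 6.43, 5.86 and 6.00 in controls and 7.28, 6.24 and 6.83 in mutants. Trem1 was at 6.43, 6.45 and 6.29 in controls and 7.33, 6.58 and 6.86 in mutants. In all 6, as in Egln3, mutant replicate 1 was the highest array, and without it Cish was the only one of them still among the 6 nearest. With repeated quantile normalization and after cyclic loess, Cited2, from the list of HIF subunits and regulators, took the place of Nr4a3 among the 6 nearest. Of the members, Adm ranked 298 and Vegfa 971 in likeness to Egln3, Bnip3 ranked 3950, and Egln1 ranked 11423.

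Marker lists of other cell types and of cell handling were set beside Egln3. Of all tested genes 42.5% had a higher mutant mean. The median difference was 0.087 in the dimmest brightness group and −0.21 in the brightest, so the counts below depend on brightness too. Immediate early genes, which are induced within minutes by stimulation or handling, had 16 of 17 tested members with a higher mutant mean and a median difference of 0.44. The mean log2 value of this list was 7.66, 6.59 and 7.26 in controls and 8.28, 7.07 and 7.41 in mutants. Its highest array was mutant replicate 1, as for Egln3, and the groups overlapped. The myeloid list had 7 of 15 members higher, with list means of 8.60 to 9.33 in controls and 8.54 to 9.49 in mutants. Markers of mature neutrophils, chosen after the likeness to Trem1 and Stfa1 was seen, had 3 of 9 tested members higher, with list means of 6.73 to 7.03 in controls and of 7.51, 6.14 and 6.77 in mutant replicates 1, 2 and 3. Megakaryocyte genes had 5 of 5 tested members higher, with list means of 5.24 to 5.71 in controls and 5.59 to 5.72 in mutants. Of the other lists, macrophage and monocyte genes had 3 of 9 higher (6.65 to 6.81 in controls, 6.51 to 6.75 in mutants), erythroid genes 5 of 9 (6.48 to 7.13 and 6.46 to 6.99) and T and natural killer genes 2 of 9 (5.66 to 6.11 and 5.54 to 5.80). Plasma and mature B genes had 0 of 5 higher (8.26 to 8.51 and 7.88 to 8.33), stromal and bone genes 4 of 8 (5.98 to 6.15 and 5.99 to 6.19) and the sort and lymphoid progenitor genes 1 of 10 (8.62 to 8.82 and 8.40 to 8.61). The part of these lists, the immediate early, myeloid, mature neutrophil and megakaryocyte lists included, in the difference of Egln3 was not tested.

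**Figure D5:**
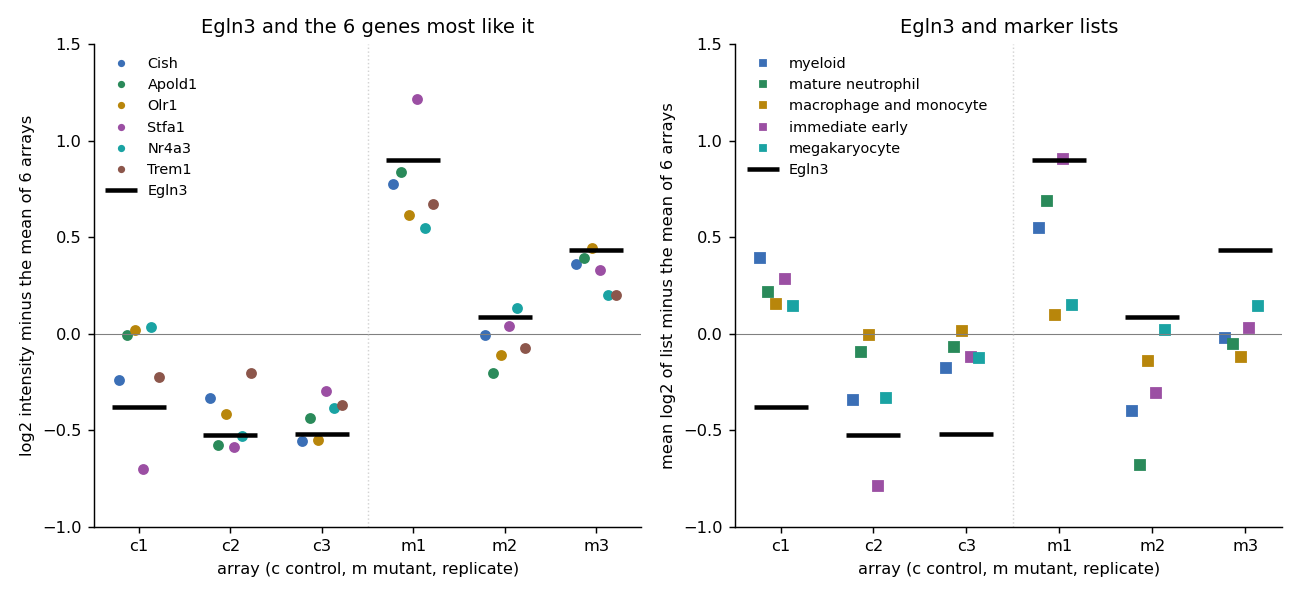
Values on each array minus the mean of the 6 arrays, in log2 units, for Egln3 (black bars) with the 6 genes most like it (left) and with the means of 5 marker lists (right); c and m stand for control and mutant and the digit for the replicate. On the left all genes are highest in mutant replicate 1, and on the right the mature neutrophil list is highest in mutant replicate 1 and lowest in mutant replicate 2.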

How the data were processed

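Sorted progenitors of 3 control and 3 mutant samples were profiled on Affymetrix arrays, after Trizol extraction and NuGEN Ovation amplification, per the labels' protocols. RMA, named in the submitters' processing notes, gave the deposited log2 intensities: it corrects background, aligns the distributions of the arrays and summarises probes. For version, annotation and genome build: not given in the sources used here. Titles gave the groups.

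A platform annotation table gave 1 symbol to 23521 of 41345 probe sets, several to 1814 and none to 16010. Per gene, the brightest such probe set on average was used, and 13308 of 22180 genes were tested after removing the dimmest 40% (mean under 4.84). The test was limma 3.58.1 (R 4.3.3), 2-sided with eBayes moderation and Benjamini-Hochberg adjustment (threshold 0.05), tested on simulated data. Members, lists and alternatives were chosen with earlier results of these data known, and the mature neutrophil list after the values were seen. Named genes were the members, the 3 with the lowest p per pathway list, and the 6 most like Egln3, predicted genes passed over. Alternatives changed the filter (none, 60%), the probe set (averaged, or each other one), the normalization (quantile again, cyclic loess, median centring), the variance prior, the moderation, the threshold (0.1), the replicate block, Eif2s3y as a covariate, and the arrays (each left out in turn). Older symbols were matched through RefSeq (GRCm38.p6). Figures used matplotlib 3.10.9.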

Additional observations from a re-analysis of the deposited data

How the results depend on the processing

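No gene passed the adjusted threshold in limma under any alternative that kept all 6 arrays, including a threshold of 0.1. Leaving out 1 array gave 0 to 4 genes. Those 4, without mutant replicate 1, were H1f2, Mir467e, Mir669h and Rpl32, and 1 gene, Stfa2l1, passed without mutant replicate 2. They were named after their values were seen, and none of them is a member or on a pathway list. The signs of the 18 pathway genes named by the rule did not change under any alternative in which they were tested, nor did any of them pass, and the same sign held for Egln1, Egln2, Egln3, Hif1a, Vegfa, Adm and Pfkfb3. For genes whose groups did not overlap, leaving out 1 array could not have changed the sign. The difference of Vegfa was 0.39 with repeated quantile normalization and 0.39 after cyclic loess.

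The list medians depended on scaling and filter, and the cause was not tested. For HIF subunits and regulators the median was −0.036 with repeated quantile normalization, −0.029 after cyclic loess, −0.23 with arrays centred on their medians and −0.22 to −0.050 with 1 array left out, the latter without mutant replicate 2. For vessels, secreted factors and red cells it was −0.17 with 60% of genes untested, −0.056 after centring and −0.0058 to 0.082 with 1 array left out. For matrix, pH and chromatin it was −0.034 without a filter, −0.037 with all probe sets averaged, −0.029 after cyclic loess and −0.17 to −0.082 with 1 array left out. For prolyl and lysyl hydroxylases it was 0.30 with 60% untested, −0.017 after cyclic loess and −0.055 to 0.14 with 1 array left out. The glucose median was −0.15 to −0.015 and that of mitochondria and stress −0.034 to 0.055 with 1 array left out. Of the 6 genes most like Egln3, 3 to 6 were among the nearest 6 when all arrays were kept, and 1 to 5 with 1 array left out.

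Same-numbered arrays correlated in their deviations from the group means at 0.13, 0.20 and −0.13 for numbers 1, 2 and 3. Arrays of different number gave −0.23 to 0.20. Replicate 1 was highest and replicate 2 lowest in both groups for the immediate early, myeloid, mature neutrophil, megakaryocyte, macrophage and monocyte, and erythroid list means. For the other marker lists this was not so. Egln3 too was highest on replicate 1 and lowest on replicate 2 in both groups. Its control replicates 2 and 3 were nearly equal, at 5.016 and 5.021. What this shared order has to do with the difference of Egln3 was not tested. Whether same-numbered samples shared more than a number cannot be told from these values. With the replicate number as a block, 0 genes passed and 1062 had an unadjusted p under 0.05. The arrays give no detection call, so the low levels of Egln3, Adm and Vhl limit how their differences can be read.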
